A study of Mus musculus with 6 samples.

Results

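The cadherin and protocadherin genes were described here across the cell types and genotypes of the embryonic day 14 mouse retina. They were taken by name: every gene whose symbol starts with Cdh and a digit, Pcdh and a digit, Pcdha, Pcdhb or Pcdhg. This gave 93 of the 27998 genes in the matrix (0.332%), under 91 symbols. Single retinal cells had been profiled by counting unique molecular identifiers (UMIs, one per captured mRNA molecule) at the 3' ends of transcripts on the 10x Genomics 3' v2 platform. The 6 libraries used here came from 3 groups of 2. The first group was Bax het Atoh7 null, heterozygous for Bax and without Atoh7. The second was Bax null, with no Bax and a wild-type Atoh7. The third was Bax null Atoh7 null, labelled as having neither gene. Bax is a trigger of apoptosis that acts at mitochondria, and Atoh7 is the transcription factor that retinal precursors need to become ganglion cells. Every group therefore carries at least 1 mutation of Bax, and no group has a full wild-type genotype. The alleles, the strain, and the number of embryos behind each library are not given in the sources used here. Sets of 6 values below are in the order Bax het Atoh7 null, Bax null, Bax null Atoh7 null, with replicates 1 and 2 of each. Nothing says that replicates came from separate animals or litters, so the p-values below measure only the spread between libraries.

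Cadherins are calcium-dependent adhesion proteins of the cell surface that mostly bind the same protein on a neighbouring cell. Classical cadherins (type I and type II) reach the actin cytoskeleton through catenins, and the type I protein N-cadherin, encoded by Cdh2, holds the neuroepithelium of the retina together at adherens junctions. Protocadherins form a larger and more diverse branch. The non-clustered delta-1 and delta-2 protocadherins are found one or a few to a cell type in the developing brain and guide cell sorting and axon growth, and several delta-2 members recruit the WAVE complex, which builds branched actin. The clustered protocadherins (Pcdha, Pcdhb and Pcdhg) are chosen promoter by promoter in single neurons and let a neuron tell its own branches from those of others.

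The promoters of 4 delta-2 protocadherin genes are shown because these genes made up all of the members that were higher in neurogenic than in progenitor cells past a 2-fold rule (below). Each sequence is the 250 bases before the annotated RefSeq start in GRCm38.p6, 5' to 3' on the strand of the gene, with E-boxes (CANNTG, the letters bound by basic helix-loop-helix factors such as Atoh7) and GC boxes (GGGCGG, or CCGCCC on the other strand) in capitals. Pcdh8 lies on the minus strand at chr14:79771313-79771562, Pcdh10 on the plus strand at chr3:45378148-45378397, Pcdh17 on the plus strand at chr14:84443313-84443562 and Pcdh19 on the minus strand at chrX:133688994-133689243.
Pcdh8: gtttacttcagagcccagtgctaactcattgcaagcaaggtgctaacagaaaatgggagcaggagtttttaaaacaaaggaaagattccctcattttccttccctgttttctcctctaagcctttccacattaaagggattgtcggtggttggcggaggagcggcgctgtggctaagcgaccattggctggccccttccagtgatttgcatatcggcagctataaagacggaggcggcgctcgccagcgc
Pcdh10: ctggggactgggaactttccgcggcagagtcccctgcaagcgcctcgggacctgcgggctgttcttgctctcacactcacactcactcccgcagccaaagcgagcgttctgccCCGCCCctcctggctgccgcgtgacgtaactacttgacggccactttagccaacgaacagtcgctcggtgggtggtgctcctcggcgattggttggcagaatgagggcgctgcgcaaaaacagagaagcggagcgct
Pcdh17: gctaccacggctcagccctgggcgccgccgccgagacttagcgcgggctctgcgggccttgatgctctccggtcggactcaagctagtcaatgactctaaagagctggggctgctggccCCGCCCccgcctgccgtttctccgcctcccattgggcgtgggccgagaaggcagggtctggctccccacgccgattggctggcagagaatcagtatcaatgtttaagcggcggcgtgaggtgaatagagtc
Pcdh19: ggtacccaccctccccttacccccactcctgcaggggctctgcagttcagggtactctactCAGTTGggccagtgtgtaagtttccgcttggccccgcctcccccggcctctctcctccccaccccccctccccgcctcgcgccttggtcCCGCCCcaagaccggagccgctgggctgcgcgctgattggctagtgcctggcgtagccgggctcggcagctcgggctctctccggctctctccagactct
The Pcdh19 window held 1 E-box (CAGTTG) and 1 GC box. Pcdh10 and Pcdh17 each held 1 GC box and no E-box, and Pcdh8 held neither. Among all 32851 windows of the same length in the table, 66.2% had an E-box and 32.7% a GC box. These windows held 11 (Pcdh8), 22 (Pcdh10), 21 (Pcdh17) and 16 (Pcdh19) CpG dinucleotides, against a median of 6 over all windows. The window of Pcdh18, the delta-2 gene that was not higher in neurogenic cells, held 23 CpG dinucleotides, 1 GC box and no E-box. These counts thus do not set the 4 genes apart from it. A match to these letters is a description of the sequence and not a bound site. Promoters were in the table for 22 of the 91 member symbols.

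The libraries held 9269 to 14730 cells each, 67050 in all, and 22463515 to 66594431 UMIs. Median UMIs per cell were 5660.5 and 6804 for Bax null and 1634 to 2632 for the other 4 libraries. Those Bax null libraries also stood apart in content: the mitochondrial gene mt-Atp6 had 8740 and 9020 CPM (UMIs of a gene per 1000000 UMIs of the library, or below of the cell type in that library) there, against 3.74 to 4.55 CPM elsewhere. The Bax null group thus cannot be told apart from whatever else sets these libraries off, and this holds for every comparison with that group below. Atoh7 was at 0 UMIs in the 4 Atoh7 null libraries, against 5.96 and 6.88 CPM where it was wild-type. Bax was at 144 and 108, 17.1 and 15, and 47.7 and 11.0 CPM. Of the libraries labelled as lacking Bax, replicate 1 of Bax null Atoh7 null was thus above the other 3, so its value goes against its label and the group name below is only the label; it is called the Bax-discordant library. It also shared 2596 cell barcodes with replicate 2 of its group, where other pairs of libraries shared 126 to 223. Such cells made up 17.6% and 22.0% of these libraries, and 89.4% of the shared barcodes had the same cell type label in both, against 43.6% for pairs drawn at random. For the genes described below, values without the Bax-discordant library or without the shared-barcode cells are given where they were computed.

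Of the 93 members, 88 had at least 1 UMI in the 6 libraries and 5 had none (Cdh16, Pcdh12, Pcdha1, Pcdha6 and Pcdhb1). Another 30 had UMIs but fewer than 60, and together the members held 109133 UMIs. Their share of all UMIs was 527 and 536, 379 and 376, and 502 and 557 CPM, lowest in Bax null. This order depends on the scale: after the TMM scaling used for the genotype tests below, the summed level in RPCs was 423 and 438, 459 and 458, and 408 and 417 CPM, highest in Bax null, and cones also had their highest sums there (573 and 533 CPM against 410 to 452). The type I classical cadherins held the most, 42274 UMIs over 5 genes, nearly all from Cdh2 (22618 UMIs) and Cdh4 (19178 UMIs). The 5 delta-2 protocadherins held 24797 UMIs, led by Pcdh17 (12035) and Pcdh19 (9362). The 13 type II cadherins held 20221 UMIs, of which Cdh11 gave 15383. The 4 delta-1 protocadherins held 12294 UMIs. The clustered genes had few counted UMIs: 4573 over 22 Pcdhg genes, 3437 over 22 Pcdhb genes and 144 over 14 Pcdha genes. For Pcdha and Pcdhg these counts may miss reads from a shared last exon (below). Cdh5, the cadherin of blood vessel walls, had 1 UMI in all 6 libraries together.

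Levels were compared over the 5 cell types that the authors assigned to 142 clusters: retinal progenitor cells (RPCs), neurogenic cells, ganglion cells, cones and a horizontal label. Markers of these types were highest where the labels put them, but cells of the horizontal label carried markers of horizontal cells (1200 to 2070 CPM) and of amacrine cells (1050 to 1630 CPM) alike, so the label is kept as a label. Because the types were made from the expression of the same cells, differences between them are given as descriptions, with no test. A member was said to be higher or lower past the 2-fold rule where its mean log2 ratio within libraries, on the log2(CPM + 1) scale, was at least 1 in size with the same sign in all 6 libraries. Only genes with a mean of at least 1 CPM in either type were counted. The added 1 CPM makes the ratios of low genes smaller than their true size.

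Neurogenic cells differed from RPCs mainly in the delta-2 protocadherins. Of 33 measured members, 6 passed the rule, beside 6.94% of all genes. Of these 6, 4 were higher in neurogenic cells, beside 3.88% of all genes, and all 4 were delta-2 genes, out of 5 in that group. The 2 lower members (beside 3.05% of all genes), Cdh9 and Pcdh1, were under 5 CPM in both types. The median log2 ratio was 0.15 over the measured members and 0.0 over all genes.

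Pcdh17, a delta-2 protocadherin that helps axons of one kind grow along each other, had the largest ratio. Its level in RPCs was 7.4 to 14.1 CPM, and in neurogenic cells it was 253 and 226, 112 and 102, and 164 and 171 CPM. All 6 neurogenic values lay above all 6 RPC values, with a mean log2 ratio of 3.73 ± 0.56 (SD, n = 6 libraries). The order of medians was neurogenic cells (167 CPM), horizontal label (110 CPM), ganglion cells (72.7 CPM), cones (71.5 CPM) and RPCs (11.8 CPM), and only cones and RPCs were neighbours whose ranges did not overlap. Within the neurogenic label its level was uneven. Over the 22 neurogenic clusters with at least 20000 UMIs in every library it ran from 15 CPM (cluster 113) to 741 CPM (cluster 87). The 3 clusters with the most Pcdh17 had 491 to 978 CPM of Otx2, the factor that commits precursors to the photoreceptor lineage, and the 2 with the least had 31.5 and 33.0 CPM. Crx, also on the photoreceptor marker list, did not follow this order. It was at 0.572, 23.7 and 3.91 CPM in clusters 87, 59 and 34, which had the most Pcdh17. In clusters 61 and 113, with the least, Crx was at 5.65 and 1.06 CPM. These clusters share libraries and were drawn from the same expression data, so the joint pattern is only a description.

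Pcdh19, the X-linked delta-2 protocadherin mutated in a form of childhood epilepsy, was at 10.1 to 21.3 CPM in RPCs and 55.3 to 135 CPM in neurogenic cells (mean log2 ratio 2.64 ± 0.23, SD, n = 6). Its median was 131 CPM in ganglion cells and 126 CPM in neurogenic cells, and those ranges overlapped. Cones, next in order at 21 to 44.8 CPM, lay below neurogenic cells in all 6 libraries with no overlap. Pcdh10, also of the WAVE-recruiting kind, was at 1.16 to 2.56 CPM in RPCs and 5.53 to 20.9 CPM in neurogenic cells (mean log2 ratio 2.37 ± 0.57, SD, n = 6). Its cone levels (median 18.2 CPM, 9.27 to 27.1) overlapped the neurogenic range. Pcdh8, which has been studied as an activity-regulated protein of synapses, had its lowest median in RPCs (0.353 CPM), then cones (2.21 CPM), neurogenic cells (3.61 CPM), ganglion cells (10.4 CPM) and the horizontal label (31.1 CPM). Neighbours in this order overlapped, yet each of the 6 libraries had the same order. It lies under the 5 CPM set for giving values between neurogenic cells and RPCs and is described because it belongs to the group. The remaining delta-2 gene, Pcdh18, did not pass the rule between these types. Its mean was 8.21 CPM in RPCs and 5.94 CPM in neurogenic cells. The mean log2 ratio was -0.42 ± 0.5 (SD, n = 6), from -1.21 to -0.02 by library. It was lower in ganglion cells, at 0.71 to 2.61 CPM against 6.42 to 11.0 CPM in RPCs.

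**Figure D1:**
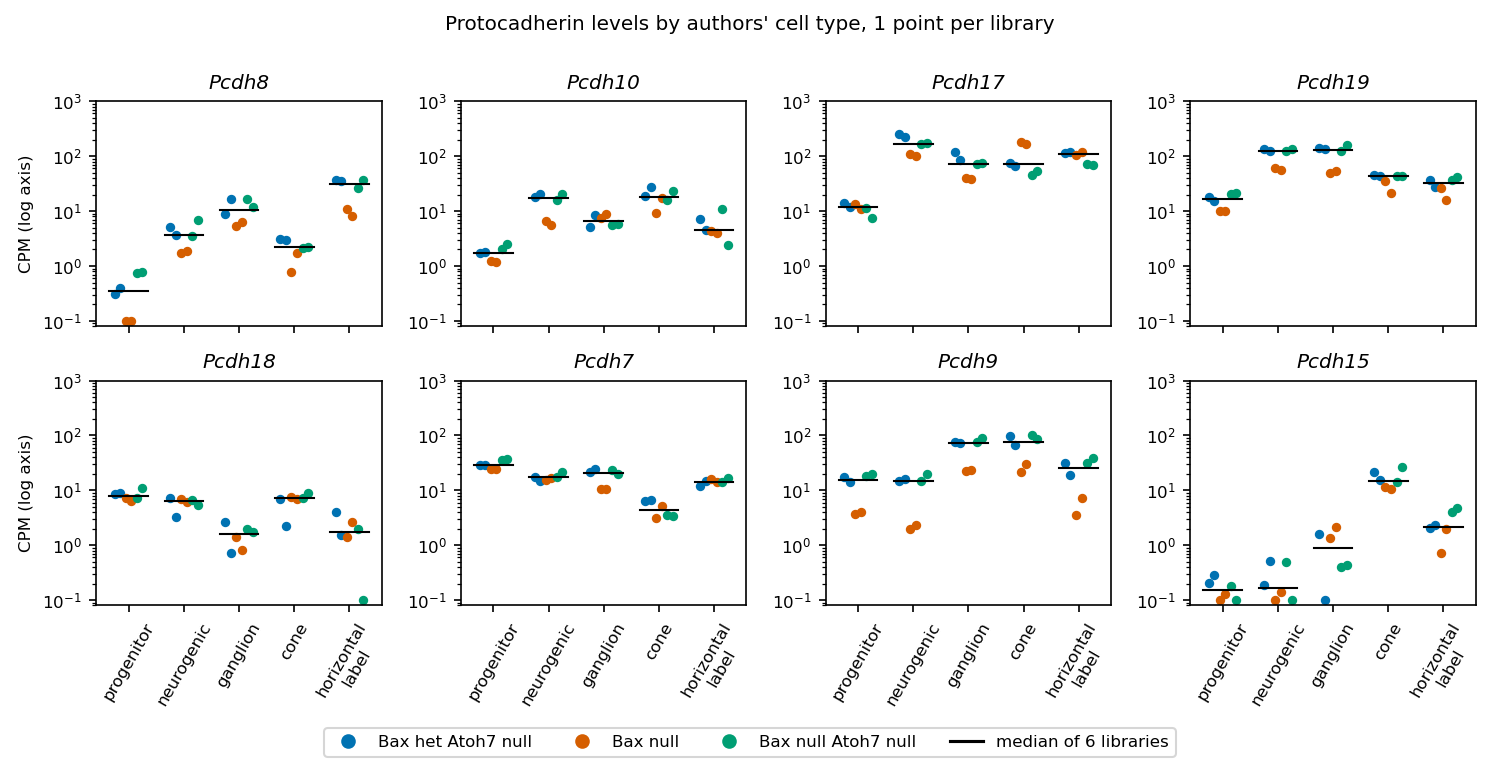
Level of 8 non-clustered protocadherin genes in the 5 cell types labelled by the authors, in CPM on a log axis, with 1 point per library (n = 6), a line at the median and values under 0.1 drawn at 0.1. Pcdh17 and Pcdh19 have their lowest median in RPCs, Pcdh9 is high in ganglion cells and cones, and Pcdh15 is above 10 CPM in cones only.

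Ganglion cells and neurogenic cells differed in 13 of 42 measured members, beside 19.4% of all genes, with 7 higher (beside 10.4%) and 6 lower (beside 9.01%) in ganglion cells. The median log2 ratio was 0.55 over the measured members and 0.0 over all genes. Pcdh9, a delta-1 protocadherin, had the largest ratio, going from 1.94 to 20.2 CPM in neurogenic cells to 22.3 to 91.4 CPM in ganglion cells (mean log2 ratio 2.44 ± 0.38, SD, n = 6). The lowest ganglion value came from a Bax null library, and within every library ganglion cells were higher. Cdh7, a type II cadherin, was at a median of 3.12 CPM in neurogenic and 14.5 CPM in ganglion cells (1.43 ± 0.52). Pcdh8 (1.30 ± 0.55) and Pcdhb17 (1.09 ± 0.83) were also higher. Members lower in ganglion cells were Pcdh18 (-1.46 ± 0.31), the type II cadherin Cdh20 (-1.44 ± 0.5), Pcdh17 (-1.28 ± 0.15) and Cdh4 (-1.16 ± 0.27).

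Some low members also passed the rule in ganglion cells. All have a mean under 5 CPM and were chosen after their values were seen. Cdh18, a type II cadherin of brain neurons, had 111 UMIs in ganglion cells, at 1.04 and 1.77, 4.58 and 3.85, and 3.18 and 2.64 CPM. It had 0 UMIs in neurogenic cells, which allows up to 0.0636 CPM (3 counts over all 6 libraries, counting error only), and 1 or 2 UMIs in each other type. Cdh12, its near relative, was at a median of 3.7 CPM in ganglion cells and at 0 to 0.662 CPM in neurogenic cells. Cdh15, first known from muscle, was at a median of 2.66 CPM in ganglion cells and 0.442 CPM in neurogenic cells.

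Cones and neurogenic cells differed in 11 of 41 measured members, beside 18.2% of all genes, with 6 higher (beside 10.5%) and 5 lower (beside 7.65%) in cones. Pcdh15, the protocadherin of the tip links of inner-ear hair cells, which photoreceptors also use and whose loss causes Usher syndrome, was at 22 and 15.4, 11.6 and 10.5, and 14.4 and 27.0 CPM in cones. No other type exceeded 4.84 CPM in any library, and the cone range overlapped none of them. Within the cone label Pcdh15 was uneven, from a mean of 0.76 CPM in cluster 98 to 53.3 CPM in cluster 21. Its mean log2 ratio over neurogenic cells was 3.81 ± 0.6 (SD, n = 6). Pcdh9, at a mean log2 ratio of 2.59 ± 0.47 over neurogenic cells, had medians of 77.3 CPM in cones and 74.2 CPM in ganglion cells, with cones higher in 3 of 6 libraries. Cdh13, a cadherin held by a lipid anchor in place of a membrane-spanning segment, was at 5.41 to 35.9 CPM in cones and 1.7 to 10.4 CPM in neurogenic cells (1.39 ± 0.41). It was uneven among cone clusters too, from a mean of 2.79 CPM in cluster 18 to 48.6 CPM in cluster 21. Lower in cones were Pcdh7 (-1.72 ± 0.5), Cdh11 (-1.57 ± 0.68), Cdh4 (-1.44 ± 0.42) and Pcdh19 (-1.38 ± 0.31). With the 5% of cells of most UMIs left out, the Pcdh7 value moved to -2.54.

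Set directly against each other, ganglion cells and cones differed in 11 of 48 measured members, beside 12.9% of all genes, with 6 higher (beside 6.33%) and 5 lower (beside 6.57%) in ganglion cells. Higher in ganglion cells were Cdh7 (1.89 ± 0.78), Pcdh8 (1.86 ± 0.45), Pcdh7 (1.74 ± 0.56, and 2.63 without the 5% of cells of most UMIs), Pcdh19 (1.39 ± 0.47), Cdh12 and Cdh18. Higher in cones were Pcdh15 (-3.21 ± 0.92), Pcdh18 (-1.56 ± 0.47), Pcdh10 (-1.28 ± 0.59), Cdh13 (-1.14 ± 0.39) and Cdh9. The delta-2 group was split between the types, with 2 of its 5 genes past the rule in each direction. Cdh9, a type II cadherin known from bipolar cells of the later retina, was at a median of 4.44 CPM in cones and 4.28 CPM in RPCs; it too lies under 5 CPM.

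Among the classical cadherins, Cdh2, Cdh4 and Cdh11 had their highest median in RPCs. Cdh4 (R-cadherin, named for the retina) was at 61.3 to 141 CPM in RPCs, 54 to 101 CPM in neurogenic cells and 18.9 to 47 CPM in ganglion cells, with no overlap between the last pair. Cdh11, a type II cadherin, was at 62.8 to 109 CPM in RPCs, above the 43 to 52.8 CPM of neurogenic cells in every library. Cdh2 had medians of 81.4 CPM in RPCs, 62.6 in ganglion cells, 56.2 in the horizontal label, 55.2 in neurogenic cells and 41 in cones. All neighbouring ranges of Cdh2 overlapped, and in each type its highest 2 values were from the Bax null libraries.

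Cdh22, a type II cadherin, was highest in the horizontal label. It was at 42.4 and 43.8, 7.95 and 12.7, and 36.7 and 52.0 CPM there, and at most 2.2 CPM in every other type. Both Bax null libraries were the lowest, a difference that was not tested because the horizontal label was not among the classes compared between genotypes. Within the label Cdh22 was at 45.4 CPM in cluster 57 and 45.2 CPM in cluster 2, and at 1.92 to 9.97 CPM in the other 3 clusters. Cdh1 (E-cadherin), the type I cadherin of epithelia, was also highest there (0.722 to 4.84 CPM) and at most 0.733 CPM elsewhere. It had only 38 UMIs in all libraries and types together, so these values rest on very few counts.

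**Figure D2:**
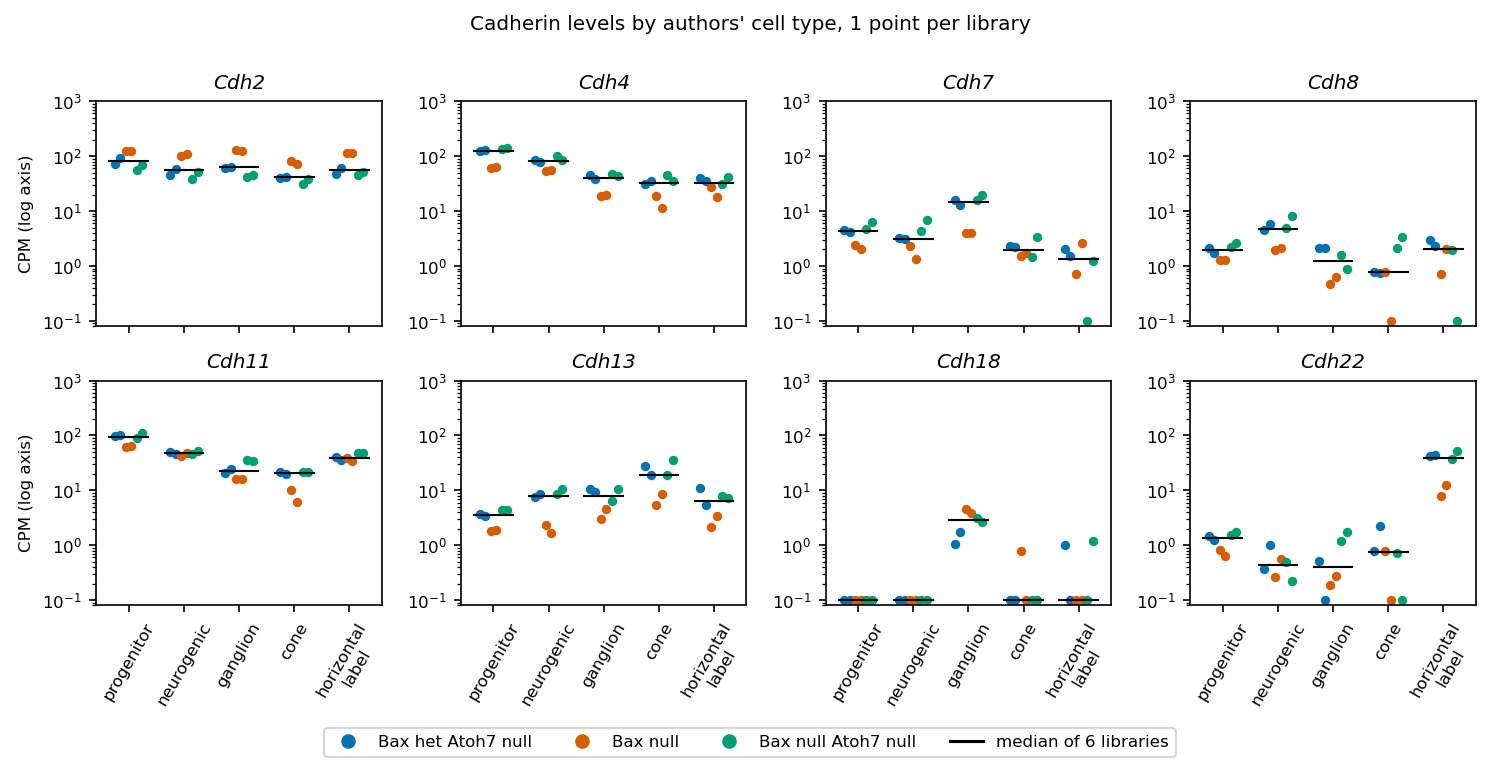
Level of 8 cadherin genes in the 5 cell types labelled by the authors, in CPM on a log axis, with 1 point per library (n = 6), a line at the median and values under 0.1 drawn at 0.1. Cdh4 and Cdh11 are higher in RPCs than in ganglion cells and cones, Cdh2 differs less between types, and Cdh22 stands out in the horizontal label.

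The clustered protocadherins are given here as sums. In the annotation (GENCODE M21, GRCm38), all 14 Pcdha genes and all 21 annotated Pcdhg genes end within 10 bases of a common 3' end. A read from the shared last exon thus cannot be given to 1 gene. How such reads were counted is not given in the sources used here. If they were left out, the Pcdha and Pcdhg sums miss them too. The size of these sums therefore cannot be compared with that of the Pcdhb sum. The Pcdhb genes have separate ends, with 1 of 22 at the last end of the cluster. The summed level of the Pcdhb genes had a median of 11.2 CPM in RPCs, 18.6 in neurogenic cells, 47.1 in ganglion cells, 38.6 in the horizontal label and 33.8 in cones. Ganglion cells (25.1 to 51.9 CPM) lay above RPCs (4.93 to 14.4 CPM) in every library with no overlap. The Pcdhg sum differed less, from a median of 18.3 CPM in RPCs to 37.7 CPM in the horizontal label. The Pcdha sum was at most 0.453 CPM in RPCs and neurogenic cells and 2.29 to 5.17 CPM in ganglion cells. Genes at 0 UMIs numbered 2 to 9 of the 14 Pcdha genes and 1 or 2 of the 22 Pcdhb genes by type, and among the 22 Pcdhg genes there were 2 in the horizontal label and 0 in the other types. No single Pcdha gene had enough UMIs to be tested between genotypes.

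**Figure D3:**
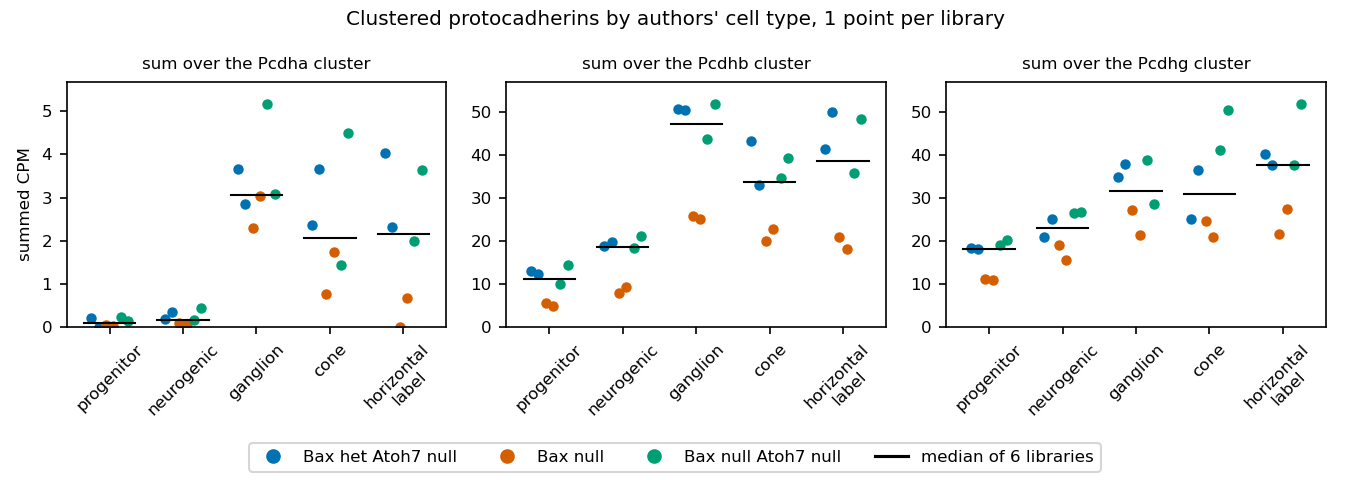
Summed level of the Pcdha, Pcdhb and Pcdhg genes in the 5 cell types labelled by the authors, in CPM on a linear axis, with 1 point per library (n = 6) and a line at the median. Pcdha and Pcdhb sums are higher in ganglion cells than in RPCs in every library, and the Pcdhg sums lie closer together.

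Genotypes were compared within 4 classes on UMI sums per library with edgeR's quasi-likelihood test, with p-values adjusted (Benjamini-Hochberg) over all genes tested in the class and calls at an adjusted p under 0.05. After a filter on low counts, 48 members were tested in RPCs, 23 in neurogenic cells, 22 in ganglion cells and 13 in cones. All levels from here on are CPM after TMM scaling, and each change is a log2 fold change ± SE with n = 2 libraries a group. Both comparisons with Bax null share the Bax null libraries, so that one cannot support the other. In addition, each neuronal class was set against the RPCs of its own library, which gives the part of a difference that goes beyond RPCs; this second value is called the difference beyond RPCs.

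Bax null Atoh7 null and Bax het Atoh7 null libraries, which share the loss of Atoh7 and are labelled as differing in Bax, gave few calls among these genes by edgeR's quasi-likelihood test. In RPCs, 0 of 48 members were called, beside 2.01% of all genes; 6 had an unadjusted p under 0.05 and DESeq2 called 1. In cones, 0 of 13 were called, beside 1.46% of all genes, with 1 at an unadjusted p under 0.05 and 0 called by DESeq2. In neurogenic cells 1 of 23 was called, beside 1.77%, and in ganglion cells 1 of 22, beside 2.34%. These were Pcdh17 and Cdh2.

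Pcdh17 in neurogenic cells stood at 228 and 206 CPM for libraries labelled Bax het Atoh7 null, against 145 and 143 CPM for those labelled Bax null Atoh7 null, the Bax-discordant library included, so these groups did not overlap. It fell by 0.60 ± 0.10 on the log2 scale (adjusted p = 0.0085, with 5.07e-06 to 0.11 over the alternatives within the class). The call was lost without replicate 1 of Bax het Atoh7 null (-0.52, adjusted p = 0.11) or without replicate 2 (-0.67, adjusted p = 0.0766), and it held without the shared-barcode cells (-0.51, adjusted p = 0.0415) and without the Bax-discordant library (-0.63, adjusted p = 0.00207). The difference beyond RPCs was -0.10 (adjusted p = 0.993). Pcdh17 was also lower in the other classes of Bax null Atoh7 null, without passing the test: -0.52 in RPCs (adjusted p = 0.324), -0.59 in ganglion cells (adjusted p = 0.0546) and -0.62 in cones (adjusted p = 0.104).

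Cdh2 in ganglion cells stood at 56.6 and 58.8 CPM for libraries labelled Bax het Atoh7 null, against 36.2 and 37.3 CPM for those labelled Bax null Atoh7 null, again without overlap. It fell by 0.65 ± 0.12 on the log2 scale (adjusted p = 0.0124, with 0.00885 to 0.165 over the alternatives within the class). Without replicate 1 of Bax het Atoh7 null the adjusted p was 0.0546 and without replicate 2 it was 0.165, with changes of -0.68 and -0.61. The call held without the Bax-discordant library (-0.63, adjusted p = 0.0277) and without the shared-barcode cells (-0.76, adjusted p = 0.0205). The difference beyond RPCs was -0.13 (adjusted p = 0.947), and Cdh2 in RPCs was at -0.48 in the same comparison (adjusted p = 0.0842).

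Against Bax null, both Atoh7 null groups differed widely, and the members' calls must be read against that. In RPCs, Bax null Atoh7 null against Bax null gave 17 of 48 members called, beside 53.9% of all genes, and Bax het Atoh7 null against Bax null gave 15 of 48, beside 53.1%. In neurogenic cells these were 10 of 23, beside 47.3%, and 13 of 23, beside 47.1%. In ganglion cells they were 12 of 22, beside 52.7%, and 10 of 22, beside 50.0%. In cones they were 6 of 13, beside 28.1%, and 5 of 13, beside 27.5%. The members' share was thus 35.4% and 31.2% in RPCs, below all genes, 43.5% and 56.5% in neurogenic cells, 54.5% and 45.5% in ganglion cells, and 46.2% and 38.5% of few members in cones. Members were more often called higher than lower in the Atoh7 null groups, while all genes were called about equally in both directions. In RPCs this was a matter of fewer lower calls. There the members' share called higher was near that of all genes, and only the share called lower was below it. In RPCs, Bax null Atoh7 null had 13 higher (beside 26.8% of all genes) and 4 lower (beside 27.1%), and Bax het Atoh7 null had 13 higher (beside 26.6% of all genes) and 2 lower (beside 26.5%). In neurogenic cells, Bax null Atoh7 null had 7 higher (beside 23.5% of all genes) and 3 lower (beside 23.8%), and Bax het Atoh7 null had 8 higher (beside 23.4% of all genes) and 5 lower (beside 23.8%). In ganglion cells, Bax null Atoh7 null had 9 higher (beside 26.2% of all genes) and 3 lower (beside 26.5%), and Bax het Atoh7 null had 8 higher (beside 25.0% of all genes) and 2 lower (beside 25.0%). In cones, Bax null Atoh7 null had 4 higher (beside 12.5% of all genes) and 2 lower (beside 15.6%), and Bax het Atoh7 null had 3 higher (beside 12.7% of all genes) and 2 lower (beside 14.8%). The median log2 change over tested members for Bax null Atoh7 null against Bax null was 0.47 in RPCs, 0.57 in neurogenic cells, 0.42 in ganglion cells and 0.36 in cones, beside medians over all genes of 0.01, 0.0, 0.02 and 0.04.

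The class labels did not hold the same clusters in these groups, as the clusters chosen for a share at least 2 times larger in one set of libraries show. In ganglion cells, 6 clusters held 79.3% to 84.3% of UMIs in the 4 Atoh7 null libraries and 8.45% and 8.63% in Bax null, while 11 other clusters held 70.4% and 74.3% in Bax null and 4.4% to 7.77% elsewhere. In neurogenic cells, 9 clusters (16, 4, 87, 120, 119, 59, 111, 130 and 125) held 41.0% to 44.1% against 10.7% and 10.3%, and in RPCs 14 clusters held 56.6% and 61.3% in Bax null against 3.61% to 6.4%. Cones were made of the same 5 clusters (15, 18, 21, 82 and 98) in every library. Marker sums moved as well. In ganglion cells the amacrine list ran at 13.0 and 12.4 CPM for Bax null, against 101 to 134 CPM in the other 4 libraries, the horizontal list at 521 and 514 against 1160 to 1400 CPM, and the progenitor list at 458 and 305 against 969 to 1280 CPM. The part of these clusters and markers in the results below was not tested, except where values within clusters are given.

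Cdh2 was lower in both Atoh7 null groups than in Bax null in all 4 classes. In ganglion cells it was at 56.6 and 58.8, 165 and 162, and 36.2 and 37.3 CPM. Both Bax null libraries were far above the other 4. It fell by 2.15 ± 0.10 on the log2 scale in Bax null Atoh7 null (adjusted p = 5.5e-09) and by 1.5 ± 0.10 in Bax het Atoh7 null (adjusted p = 1.13e-07), each against Bax null. RPCs showed most of this difference too, at 65 and 82.3, 160 and 162, and 49.7 and 56.2 CPM (-1.61 ± 0.12 and -1.13 ± 0.11). The part beyond RPCs in ganglion cells was -0.52 (adjusted p = 0.00045) and -0.39 (adjusted p = 0.00313). Against the neurogenic cells of the same library the ganglion difference was -0.31 (adjusted p = 0.109) and -0.02 (adjusted p = 0.935). In neurogenic cells the changes were -1.82 and -1.52, and in cones -1.73 and -1.37. The first ganglion change was -2.13 without the Bax-discordant library and -2.28 without the shared-barcode cells. Within clusters, on the same scale, both Bax null libraries lay above all 4 others in 63 of 70 RPC clusters, 21 of 22 neurogenic, 10 of 10 ganglion and 5 of 5 cone clusters.

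Pcdh9 ran opposite to Cdh2 in all 4 classes. In neurogenic cells it was at 13.5 and 14.4, 2.49 and 3.04, and 13.2 and 16.8 CPM. The Bax null libraries were the lowest and the other groups overlapped. It rose by 2.40 ± 0.22 in Bax null Atoh7 null and by 2.31 ± 0.22 in Bax het Atoh7 null (adjusted p = 5.41e-06 and 8.63e-06), of which 0.78 (adjusted p = 0.0413) and 0.88 (adjusted p = 0.0155) went beyond RPCs. In ganglion cells it was at 69 and 68.1, 28.6 and 30.1, and 64.9 and 76.1 CPM (1.26 ± 0.11 and 1.22 ± 0.12). There the difference beyond RPCs had the other sign, -0.37 (adjusted p = 0.107) and -0.22, and against the neurogenic cells of the same library it was -1.13 (adjusted p = 0.000138) and -1.12. Ganglion cells thus changed less than neurogenic cells in this gene. Cones stood at 89.6 and 63.9, 27.5 and 38.1, and 91.3 and 72.7 CPM (1.35 ± 0.23 and 1.23 ± 0.23). Leaving out the Bax-discordant library gave Pcdh9 changes of 2.56 in neurogenic cells, 1.37 in ganglion cells and 1.17 in cones, and leaving out the shared-barcode cells gave 2.49, 1.29 and 1.42. Both Bax null libraries lay below all others in 29 of 70 RPC clusters, 13 of 22 neurogenic, 6 of 10 ganglion and 3 of 5 cone clusters, and above them in 0 of each.

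Pcdh17 changed in opposite directions by class where Bax het Atoh7 null was set against Bax null. In cones it was at 70 and 63.2, 235 and 214, and 41.4 and 45.3 CPM, with both Bax null libraries above the other 4. It fell by 2.38 ± 0.15 in Bax null Atoh7 null (adjusted p = 2.25e-10) and by 1.76 ± 0.14 in Bax het Atoh7 null (adjusted p = 9.01e-09). Beyond RPCs it was the 1 member of 47 called in each comparison, beside 4.91% and 5.30% of all genes, with -1.40 ± 0.20 (adjusted p = 3.75e-08) and -1.28 (adjusted p = 1.2e-08). Against the neurogenic cells of the same library the cone values were -2.38 (adjusted p = 1.58e-20) and -2.37 (adjusted p = 5.6e-23). Without the shared-barcode cells the first change was -2.45, and it was -2.31 without the Bax-discordant library. Both Bax null libraries exceeded the other 4 in each of the 5 cone clusters. In cluster 18, for example, it was at 96.1 and 77.2, 313 and 374, and 46.3 and 64 CPM, and in cluster 21 at 31.7 and 36.1, 144 and 150, and 11.2 and 30.2 CPM. The photoreceptor marker list was at 3220 to 3930 CPM in cones of all 6 libraries.

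In neurogenic cells Pcdh17 was at 228 and 206, 145 and 133, and 145 and 143 CPM. Here Bax null and Bax null Atoh7 null overlapped and Bax het Atoh7 null was above both. Against Bax null it rose by 0.65 ± 0.10 in Bax het Atoh7 null (adjusted p = 0.00021), and by 1.07 beyond RPCs (adjusted p = 3.6e-09). For Bax null Atoh7 null the change was 0.05 in the class (adjusted p = 0.681) and 0.97 beyond RPCs (adjusted p = 3.76e-07), while RPCs themselves fell by 0.92 ± 0.20 (adjusted p = 0.00433; -1.39 without the Bax-discordant library). In ganglion cells, at 110 and 79.6, 52.1 and 49.6, and 62.1 and 61.4 CPM, it rose in Bax het Atoh7 null by 0.87 ± 0.13 (adjusted p = 0.00015) and by 1.30 beyond RPCs (adjusted p = 7.23e-09), while for Bax null Atoh7 null the change was 0.28 (adjusted p = 0.104). Against the neurogenic cells of the same library, the ganglion difference for Bax het Atoh7 null was 0.2 (adjusted p = 0.218). Within clusters, both Bax het Atoh7 null libraries lay above both Bax null libraries in 6 of 22 neurogenic clusters and below them in 8, and above and below in 1 and 1 of 10 ganglion clusters. The 9 neurogenic clusters with the larger share in the Atoh7 null libraries include cluster 87, at 741 CPM of Pcdh17 before scaling, and cluster 59, at 661 CPM.

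**Figure D4:**
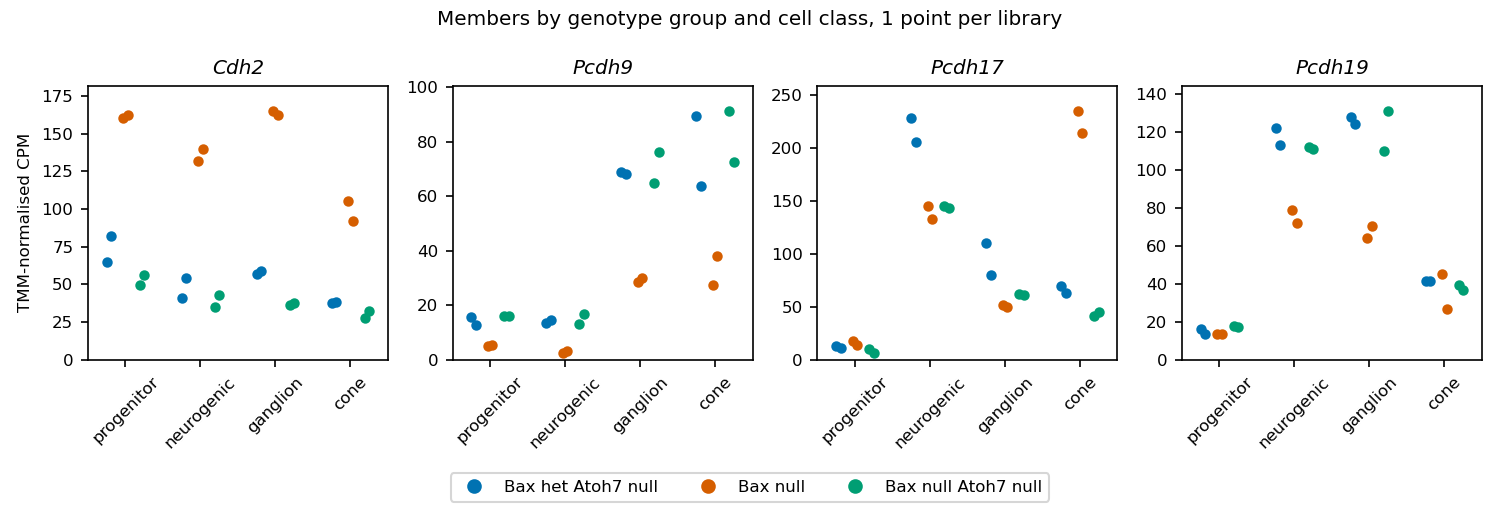
TMM-scaled CPM of Cdh2, Pcdh9, Pcdh17 and Pcdh19 in 4 classes, with 1 point per library and 2 libraries per genotype. Cdh2 is highest and Pcdh9 lowest in the Bax null libraries in all 4 classes, while Pcdh17 is highest in Bax null among cones and not among neurogenic cells.

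Pcdh19 rose in the Atoh7 null groups in neurogenic and ganglion cells, and was also called higher in RPCs of Bax null Atoh7 null. The RPC call was lost without either Bax null library, with changes of 0.4 without replicate 1 and 0.39 without replicate 2. In ganglion cells it was at 128 and 124, 64 and 70.4, and 110 and 131 CPM, with no overlap between Bax null and the rest. It rose by 0.84 ± 0.11 (adjusted p = 2.76e-05) and 0.91 ± 0.11 (adjusted p = 2.07e-05), and beyond RPCs by 0.46 (adjusted p = 0.00305) and 0.76 (adjusted p = 3.59e-06). Against the neurogenic cells of the same library the ganglion difference was 0.28 (adjusted p = 0.0648) and 0.24 (adjusted p = 0.123). In neurogenic cells, at 122 and 113, 78.9 and 71.8, and 112 and 111 CPM, the changes were 0.57 ± 0.09 and 0.64 ± 0.09. Beyond RPCs the neurogenic values were 0.2 (adjusted p = 0.258) and 0.49. Within the class, the first values were 0.97 in ganglion and 0.54 in neurogenic cells without the Bax-discordant library, and 0.90 and 0.63 without the shared-barcode cells. Both Bax null libraries were the lowest in 5 of 22 neurogenic and 3 of 10 ganglion clusters, and the highest in 0 of each.

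Pcdh10 differed in sign between neurogenic and ganglion cells. In neurogenic cells it was at 16.2 and 19, 8.39 and 7.18, and 14.3 and 16.8 CPM, and rose by 1.0 ± 0.18 and 1.19 ± 0.17 (adjusted p = 0.000685 and 0.000186). In ganglion cells it was at 4.79 and 7.89, 9.67 and 11.5, and 4.83 and 4.75 CPM, and fell by 1.14 ± 0.28 in Bax null Atoh7 null (adjusted p = 0.00438). Tested directly, ganglion cells differed from the neurogenic cells of the same library by -2.13 and from RPCs by -1.40 (adjusted p = 0.00504) in this comparison. With the Bax-discordant library left out, the first neurogenic value was 1.09 and the ganglion value -1.15 (0.92 and -1.1 without the shared-barcode cells). Within ganglion clusters both Bax null libraries were above the rest in 3 of 10 and below in 2.

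Other members changed in neurogenic or ganglion cells. Cdh7 in ganglion cells was at 14.9 and 12.2, 5.14 and 5.27, and 13.8 and 16.1 CPM, and rose by 1.51 ± 0.22 and 1.35 ± 0.23 (adjusted p = 8.9e-05 and 0.000394), of which 0.89 (adjusted p = 0.0168) and 0.97 (adjusted p = 0.0141) went beyond RPCs; within ganglion clusters the Bax null libraries were both above the rest in 2 of 10 and both below in 0. The first Cdh7 value was 1.62 without the Bax-discordant library and 1.74 without the shared-barcode cells. Set against the neurogenic cells of the same library, Cdh7 in ganglion cells differed by 0.52 (adjusted p = 0.419) and 1.04 (adjusted p = 0.0802). Cdh7 also rose in RPCs (0.64) and neurogenic cells (1.01) of Bax null Atoh7 null, with both calls lost under DESeq2 and the latter also without the shared-barcode cells (0.80, adjusted p = 0.095). Cdh13 in neurogenic cells was at 6.74 and 7.9, 2.95 and 2.21, and 7.6 and 8.67 CPM, and rose by 1.66 ± 0.25 and 1.52 ± 0.26, of which 1.08 (adjusted p = 0.0194) and 1.12 (adjusted p = 0.015) went beyond RPCs; the first was 1.74 without the Bax-discordant library and 1.70 without the shared-barcode cells. It was also called higher in cones in both comparisons (1.33 and 1.27), in RPCs of Bax null Atoh7 null (0.60) and in ganglion cells of Bax het Atoh7 null (0.85), and each of these 4 calls was lost under DESeq2. Cdh11 in neurogenic cells was at 45.6 and 42.3, 55.3 and 62, and 40.7 and 43.9 CPM, and fell by 0.48 ± 0.11 and 0.42 ± 0.11. The first of these calls was lost without replicate 2 of Bax null (-0.39, adjusted p = 0.056, with 0.000361 to 0.056 over the alternatives within the class), and the second was lost under DESeq2 among others (adjusted p = 0.00303 to 0.0968 over the alternatives). Pcdh7 in ganglion cells was at 19.7 and 23, 13.5 and 13.7, and 20.7 and 16.5 CPM, and rose by 0.67 ± 0.17 in Bax het Atoh7 null (adjusted p = 0.00612), a call lost under DESeq2 (adjusted p = 0.0912) and without replicate 2 of that group (0.52, adjusted p = 0.125, with 0.00281 to 0.125 over the alternatives within the class). In the same comparison Pcdh7 was lower in RPCs (-0.29 ± 0.08, adjusted p = 0.0111, with 0.0052 to 0.0771 over the alternatives within the class) and in neurogenic cells (-0.55 ± 0.15, adjusted p = 0.00928, with 0.00301 to 0.094), and both of these calls were lost under DESeq2.

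Among RPCs, Cdh4 stood at 113 and 117, 80 and 83.1, and 121 and 114 CPM and rose by 0.53 ± 0.08 and 0.49 ± 0.08. Pcdh11x, the X-linked delta-1 member, stood at 15.7 and 16.9, 9.34 and 7.1, and 16.7 and 18.2 CPM and rose by 1.08 ± 0.13 and 0.98 ± 0.14. Pcdhga12, a gene of the Pcdhg cluster, fell by 0.86 ± 0.18 in RPCs and by 0.93 ± 0.22 in neurogenic cells of Bax null Atoh7 null, subject to the shared 3' end described above. Of 12 Pcdhb and 11 Pcdhg genes tested in RPCs, those called upward in Bax null Atoh7 null (Pcdhb6, Pcdhb21, Pcdhga2, Pcdhga6 and Pcdhga9) were all low, and they are named here after their values were seen. All but Pcdhga2 lost the call under DESeq2 and in 3 or more of the 6 fits with 1 library left out. In ganglion cells the low Cdh18, at 0.959 and 1.64, 5.87 and 5.03, and 2.76 and 2.19 CPM, fell by 1.98 ± 0.43 in Bax het Atoh7 null (adjusted p = 0.00221) and by 1.12 ± 0.36 in Bax null Atoh7 null (adjusted p = 0.0183). The latter call was lost without either Bax null Atoh7 null replicate (adjusted p = 0.0621 without replicate 1 and 0.124 without replicate 2) and under DESeq2 (adjusted p = 0.204, with 0.0172 to 0.204 over the alternatives within the class). In cones, Pcdhb7 was at 8.02 and 3.43, 0.98 and 0, and 3.89 and 6.61 CPM; its calls were lost in 7 and 3 of the alternatives within the class.

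**Figure D5:**
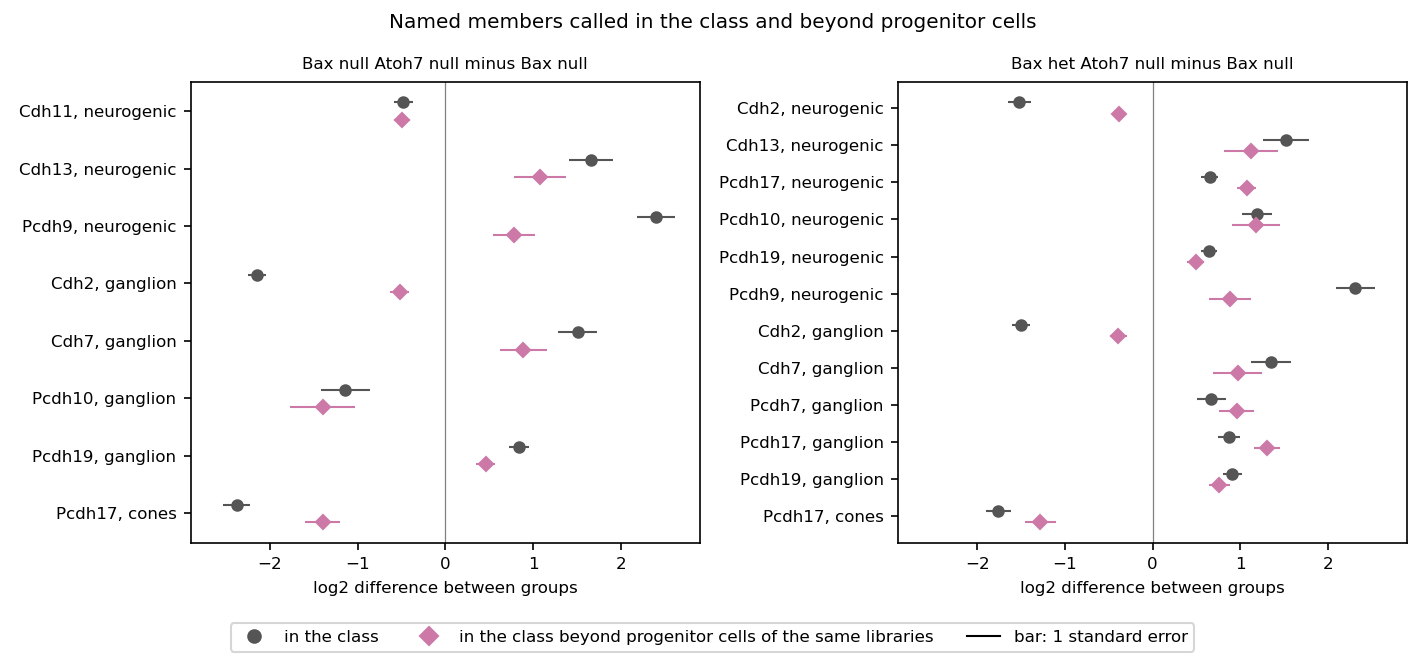
Log2 fold changes, with bars of 1 SE, of the named members called both within a class and in the difference beyond RPCs, for Bax null Atoh7 null and for Bax het Atoh7 null against Bax null. For Cdh2 in ganglion cells most of the class change is shared with RPCs, while for Pcdh17 in cones (-2.38 in the class, -1.40 beyond RPCs) the larger part is not.

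Against Bax null, a minority of members differed beyond RPCs. Their share was above that of all genes in neurogenic cells and below it in ganglion cells, from few calls in each. In neurogenic cells 5 of 47 members were called for Bax null Atoh7 null against Bax null, beside 7.46% of all genes, and 9 for Bax het Atoh7 null, beside 8.35%. In ganglion cells these were 8 of 59, beside 15.7%, and 6, beside 15.2%. For Bax null Atoh7 null against Bax het Atoh7 null, edgeR's quasi-likelihood test called 0 of 47 in neurogenic cells (beside 0.00% of all genes, with 2 at an unadjusted p under 0.05), 0 of 59 in ganglion cells (beside 0.102%, with 3) and 0 of 47 in cones (beside 0.0152%, with 1); DESeq2 was not run on this measure. Against the neurogenic cells of the same library, ganglion cells had 6, 0 and 5 of 38 called for Bax null Atoh7 null against Bax null, the pair of Atoh7 null groups, and Bax het Atoh7 null against Bax null, in this order (beside 16.7%, 0.0243% and 16.2%, with 11, 2 and 9 at an unadjusted p under 0.05). Cones had 3 of 28 in both comparisons with Bax null (beside 5.99% and 6.64%). Leaving out the shared-barcode cells kept 13 of 17 called members in RPCs, 9 of 10 in neurogenic cells, 10 of 12 in ganglion cells and 4 of 6 in cones for Bax null Atoh7 null against Bax null. Without the Bax-discordant library, the calls kept were 12 of 17, 10 of 10, 8 of 12 and 4 of 6.

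The partners of these proteins were read from lists set by function. The cytoplasmic partners of classical cadherins, the catenins and vinculin among them, had 0 called higher and 4 lower of 9 tested in ganglion cells of Bax null Atoh7 null against Bax null, 1 and 4 of 9 in neurogenic cells, 2 and 3 of 9 in RPCs, and 1 and 0 of 8 in cones. Over all genes, 26.2% were called higher and 26.5% lower in ganglion cells, 23.5% and 23.8% in neurogenic cells, 26.8% and 27.1% in RPCs, and 12.5% and 15.6% in cones, so that in every class the list's total was near or below what all genes gave. Jup (plakoglobin, a relative of beta-catenin) in ganglion cells was at 30.2 and 32.9, 76.2 and 87.1, and 25.2 and 36.9 CPM and fell by 1.40 ± 0.15 (adjusted p = 7.72e-06). Ctnnb1 (beta-catenin itself) in cones was at 173 and 174, 101 and 108, and 160 and 187 CPM and rose by 0.73 ± 0.14 in Bax het Atoh7 null (adjusted p = 0.000652). Vcl (vinculin, which ties junctions to actin) fell in RPCs by 0.94 ± 0.11, in neurogenic cells by 1.88 ± 0.27 and in ganglion cells by 1.26 ± 0.33 in Bax null Atoh7 null, the last a call lost without the Bax-discordant library (-0.81, adjusted p = 0.11). Jup was at -1.14 without that library and -1.53 without the shared-barcode cells.

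Other members of the cadherin superfamily, such as the very large Fat and Dachsous proteins, had 0 higher and 6 lower of 9 in neurogenic cells of Bax null Atoh7 null against Bax null, and 2 and 5 of 9 in ganglion cells, beside the same shares of all genes. Fat1 in ganglion cells was 1 of the 2 called higher. It was at 26.8 and 18.7, 10.8 and 9.7, and 28 and 33.3 CPM, and rose by 1.58 ± 0.18 (adjusted p = 1.37e-05), with 1.55 beyond RPCs (adjusted p = 3.56e-09). Fat4 in neurogenic cells was at 10.9 and 11.1, 17.5 and 24.1, and 9.8 and 8.11 CPM and fell by 1.21 ± 0.19 (adjusted p = 0.000333). Of the WAVE complex, with 2 higher and 2 lower of 7 in neurogenic cells beside 47.3% of all genes called, Cyfip2 was at 29.1 and 33.3, 14.7 and 14.6, and 33.5 and 30 CPM and rose by 1.12 ± 0.13, nearly all of it beyond RPCs (1.06, adjusted p = 5.9e-06). Zeb2, a repressor of Cdh1, in ganglion cells was at 147 and 154, 68.7 and 70.3, and 162 and 149 CPM and rose by 1.16 ± 0.09 (adjusted p = 5.54e-07). For Bax null Atoh7 null against Bax het Atoh7 null, 1 partner gene was called in all classes together: Smchd1, a chromatin protein that acts on the clustered loci, rose by 0.47 ± 0.11 in ganglion cells (adjusted p = 0.0381), a call lost without the shared-barcode cells (0.41, adjusted p = 0.155). The values without the Bax-discordant library were 1.70 for Fat1, -1.39 for Fat4, 1.01 for Cyfip2 and 1.1 for Zeb2, each still called.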

How the data were processed

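The authors deposited 1 matrix of UMI counts per gene and cell, with cluster and cell type labels. Per the submitters' processing notes, reads were processed with Cell Ranger 1.2.1 on mm10, and the annotation is not given in the sources used here. The matrix held 93128 cells: 67050 came from the 6 libraries, and 26078 cells of 2 further libraries were not used in any step. In all 67050 cells the matrix sum equalled the deposited total, so the counts are unnormalized. No doublet caller was run, and 1 alternative left out the 5% of cells with most UMIs.

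UMIs were summed per library and cell type, and CPM is relative to that sum; genotype values within clusters use the TMM factor of their class (Python 3.11.15, numpy 2.4.6, pandas 2.3.3). Genotypes were compared with edgeR 4.0.16 in R 4.3.3 (filterByExpr, TMM, quasi-likelihood F test, 6 libraries in 1 fit, no replicate block) after a test on simulated counts, with DESeq2 1.42.0 as an alternative. The difference beyond RPCs adds a library block and a term for class by group. Other alternatives were RLE size factors, no filter, other pseudocounts, and leaving out each library. A permutation of 2 libraries against 2 cannot pass 0.05, so none is reported. Intervals from 0 counts cover counting error only.

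Values in every library are given for up to 8 called members per class and comparison with the largest change and at least 5 CPM in the higher group, and for up to 8 members per pair of types past the fold rule with at least 5 CPM. Members, lists and rules were chosen with earlier results of these data known. Promoter sequences are from RefSeq (GRCm38.p6). The annotation held 92 of the 93 identifiers, and 2 symbols (Pcdha11 and Pcdhga8) stand for 2 identifiers each.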

Additional observations from a re-analysis of the deposited data

Results flagged for a closer look

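These values are differences of a genotype effect between 2 classes of the same libraries, tested as the term for class by group (edgeR's quasi-likelihood test), each relative to RPCs on the log2 scale. In neurogenic cells, Bax null Atoh7 null against Bax null differed by 0.78 for Pcdh9, 1.08 for Cdh13 and -0.49 for Cdh11. Bax het Atoh7 null against Bax null differed there by 0.88 for Pcdh9, 1.12 for Cdh13, -0.38 for Cdh2, 1.18 for Pcdh10, 1.07 for Pcdh17 and 0.49 for Pcdh19. In ganglion cells, Bax null Atoh7 null against Bax null differed by -0.52 for Cdh2, 0.89 for Cdh7, -1.4 for Pcdh10 and 0.46 for Pcdh19. Bax het Atoh7 null against Bax null differed there by -0.39 for Cdh2, 0.97 for Cdh7, 0.76 for Pcdh19, 1.3 for Pcdh17 and 0.96 for Pcdh7. In cones, Pcdh17 differed by -1.4 and -1.28. All of these comparisons rest on the same 2 Bax null libraries.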

How the results depend on the processing

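The named members gave 26 mean log2 ratios between types, and some members were named in more than 1 pair of types. A ratio counted as kept where its mean moved by less than its SD over the 6 libraries. By that measure 26 of 26 ratios were kept without both Bax null libraries, and 156 of 156 with 1 library left out. Leaving out so few of the 6 values cannot move their mean by a full SD. These counts were therefore fixed in advance and say nothing on how stable the ratios are. Of the 58 genotype calls named, 58 held under RLE size factors, 56 with no filter and 44 under DESeq2; the cause was not tested. DESeq2 lost 12 of 56 and gave no adjusted p for the other two, both of Pcdhb7 in cones. With 5 CPM added in place of 1, the members past the 2-fold rule numbered 3 (neurogenic against RPCs), 3 (ganglion against neurogenic), 6 (cones against neurogenic) and 5 (ganglion against cones), since a larger constant shrinks the ratios of low genes. With 1 library left out these were 5 to 7, 12 to 16, 10 to 12 and 10 to 13.

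The counts in this section have no share of all genes beside them. They show only how the counts vary with the processing, and are not results about the members. DESeq2 called 10 members in RPCs for Bax null Atoh7 null against Bax null, 1 against Bax het Atoh7 null, and 7 for Bax het Atoh7 null against Bax null. It called 6 in neurogenic cells for the last comparison, and 3 and 3 in cones for both comparisons with Bax null. Without the 5% of cells with most UMIs, Bax null Atoh7 null against Bax het Atoh7 null had 2 calls in ganglion cells and 1 in cones.

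Nothing in the labels ties the replicate numbers to each other, and 2 numbers are too few to settle a pairing from the data. Deviations of same-numbered libraries correlated at 0.0941 to 0.31 between both Atoh7 null groups and at -0.107 to 0.0535 in comparisons with Bax null. With a replicate block, Bax null Atoh7 null against Bax het Atoh7 null had 1 call in RPCs and 2 in ganglion cells, and 57 of the 58 named calls held. With the pairing crossed in neurogenic cells, 8 of 8 held for Bax null Atoh7 null against Bax null.

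With 1 library left out, calls ran in RPCs from 11 to 17 (Bax null Atoh7 null against Bax null), 0 to 1 (against Bax het Atoh7 null) and 7 to 20 (Bax het Atoh7 null against Bax null). In the same order they ran from 6 to 12, 0 to 1 and 7 to 13 in neurogenic cells, 10 to 15, 0 to 1 and 7 to 13 in ganglion cells, and 4 to 5, 0 to 0 and 3 to 5 in cones. The first RPC count was 11 without either Bax null library, and the last was 8 and 7 without Bax het Atoh7 null replicates 1 and 2, and 7 and 9 without Bax null replicates 1 and 2. In neurogenic cells the first was 6 without Bax null replicate 2, and the last was 7 without it or without Bax het Atoh7 null replicate 2. The cone count for Bax het Atoh7 null against Bax null was 3 without Bax het Atoh7 null replicate 1 or either Bax null library.

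Calls beyond RPCs follow in this order: Bax null Atoh7 null against Bax null, the Atoh7 null pair, Bax het Atoh7 null against Bax null. They numbered 5, 0 and 9 in neurogenic cells, 8, 0 and 6 in ganglion cells, and 1, 0 and 1 in cones. Against neurogenic cells, in the same order, ganglion cells had 6, 0 and 5 calls and cones 3, 0 and 3. Signs turned for Pcdh9 in ganglion cells (-0.37 and -0.22 beyond RPCs, -1.13 and -1.12 beyond neurogenic cells) and cones (-0.22 and -0.16, -1.0 and -1.08), for Cdh18 in ganglion cells (0.47 beyond RPCs), and beyond neurogenic cells for Cdh13 in ganglion cells (-0.71) and cones (-0.26 and -0.20) and Cdh2 in cones (0.16 and 0.17). These measures subtract the change in the reference class. Few counted UMIs limit the clustered genes most: 35 members had under 60 UMIs.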
